A study of Mus musculus with 18 samples.

Results

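The 38 genes described here are neuronal and synaptic genes, chosen by name out of the 21923 genes in the table, and their levels were read in ribosome pulldowns made from cortical astrocytes. All 38 were present in the table and all 38 passed the filter on low counts. They fall into 12 genes of the synaptic vesicle and transmitter release, 7 of transmitter identity and interneuron type, 7 of the postsynaptic scaffold and its kinases, 6 transmitter receptor subunits, and 6 of the cytoskeleton, nucleus and cell surface. Translating ribosome affinity purification (TRAP) captures ribosomes that carry an EGFP tag on the protein L10a together with the mRNA bound to them. The immunoprecipitate (IP) is therefore rich in transcripts of the tagged cells. Transcripts typical of neurons can appear in it too, for example as carry-over or as low expression in the tagged cells. A bulk library cannot tell such sources apart.

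The mice labelled cKO carried GLUT1 flox/flox;GLAC +/wt and the mice labelled control GLAC +/wt, and the study's methods give the driver that both share as GLAST CreERT2, a tamoxifen-inducible Cre under the promoter of an astrocyte glutamate transporter. All were male mice of a C57BL/6 background kept in the home cage. All received a Cre-dependent AAV with the astrocyte promoter hGFAP to express EGFP-L10a, and tamoxifen on 5 consecutive days at 8 to 10 weeks of age, and RNA was taken from cortex 60 days later. The labels list 4 IP samples of cKO mice and 5 of control mice, each with its input, and the study's source data give the genotype of 7 IP libraries by number. These 7 libraries were used, 3 labelled control (AstroTRAP_11, AstroTRAP_15 and AstroTRAP_19) and 4 labelled cKO (AstroTRAP_1, AstroTRAP_5, AstroTRAP_9 and AstroTRAP_17). The inputs and the remaining control IP libraries were not analysed here, so no value below compares pulldown with input.

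The study's methods state that 1 sample was left out for a very low read count and that IP samples with high expression of neuronal genes were left out too, without naming them. The libraries were thus chosen on the kind of gene described here, and their spread in these genes is the spread after that choice. All 4 IP samples labelled cKO are among the 7 libraries, but only 3 of the 5 labelled control, so those absent are all control. Why each is absent is not given. The fold changes, intervals and calls below do not account for that choice, and its effect on them was not tested. Whether a neuronal transcript was rarer because fewer neuronal ribosomes were carried over or because less of it was bound per ribosome cannot be told apart in these libraries. The total estimated count lay between 12570309 and 40734343 per library. At the shallowest library a count of 3 corresponded to 0.222 CPM, where CPM is the count divided by the library size in units of 1e6 counts, after scaling by the TMM method. The gene-level count of the targeted gene, Slc2a1 on chromosome 4 (119108745 to 119137330, GRCm38), did not separate the labels. It was 61.7, 59.3 and 57.6 CPM in AstroTRAP_11, AstroTRAP_15 and AstroTRAP_19, and 61.9, 56.4, 59.4 and 58.3 CPM in AstroTRAP_1, AstroTRAP_5, AstroTRAP_9 and AstroTRAP_17. The log2 fold change of Slc2a1 was -0.01, with a 95% interval from -0.28 to 0.25 (edgeR quasi-likelihood fit). The study assessed the deletion in IP samples by qPCR and by reads over part of the Slc2a1 exons. It reported a strong fall in cKO samples by both, and less GLUT1 protein in brain tissue of cKO mice by western blot and immunolabelling. The exon reads came from a STAR alignment, whereas the gene-level counts are estimates from kallisto, which assigns reads to transcripts. A count over the whole gene takes in those exons, yet the fall was not seen in it, and the reason was not tested. The gene-level count thus did not bear out the labels, nor can it show them to be wrong. Libraries are called below by their labels.

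Synaptic transmission rests on a short chain of proteins. An action potential opens calcium channels at the axon terminal, the calcium sensor synaptotagmin triggers fusion of docked vesicles through the SNARE proteins, and the released transmitter binds receptors that are anchored by scaffold proteins on the facing membrane. Most excitatory cortical neurons load vesicles with glutamate through the transporter encoded by Slc17a7, whereas inhibitory interneurons make GABA with the enzymes encoded by Gad1 and Gad2 and load it through the transporter encoded by Slc32a1.

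None of the 38 genes differed between libraries labelled cKO and libraries labelled control at an adjusted p under 0.05 (edgeR quasi-likelihood test, Benjamini-Hochberg adjustment over 13296 genes, 4 libraries against 3). Over all genes tested, 6 of 13296 passed, which is 0.0451%. Of the 38 genes, 0 had an unadjusted p under 0.05 in that test, against 343 of all genes, or 2.58%. DESeq2 and edgeR's exact test also called 0 of the 38. The lowest unadjusted p among them was 0.181, for Syn2. In 0 of the 38 genes did the 4 libraries of one label lie wholly above or below the 3 of the other, and 680 of all genes did so, or 5.11%. At shares this low, 0 of 38 does not set these genes apart from the rest.

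The size of the difference that these libraries leave possible varied from gene to gene. For 31 of the 38 genes the 95% interval of the log2 fold change lay within 1 in either direction, so a doubling or a halving fell outside it. The exceptions were Slc17a7, Slc32a1, Sst, Pvalb, Dlg4, Shank1 and Shank2, whose intervals reached past 1 on at least one side. The log2 fold changes ran from -0.64 for Slc32a1 to 0.52 for Shank1, with standard errors between 0.137 and 0.842. Their median was 0.07, with 25 above 0 and 13 below, beside a median of 0.01 over all genes tested. When the libraries were scaled to the astrocyte genes Gja1, Aldh1l1 and Slc1a3, the median of the 38 moved to 0.21 and that of all genes to 0.15. Under TMM scaling the log2 fold change was 0.006 for Gja1, -0.35 for Aldh1l1 and -0.09 for Slc1a3, none of them called.

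**Figure D1:**
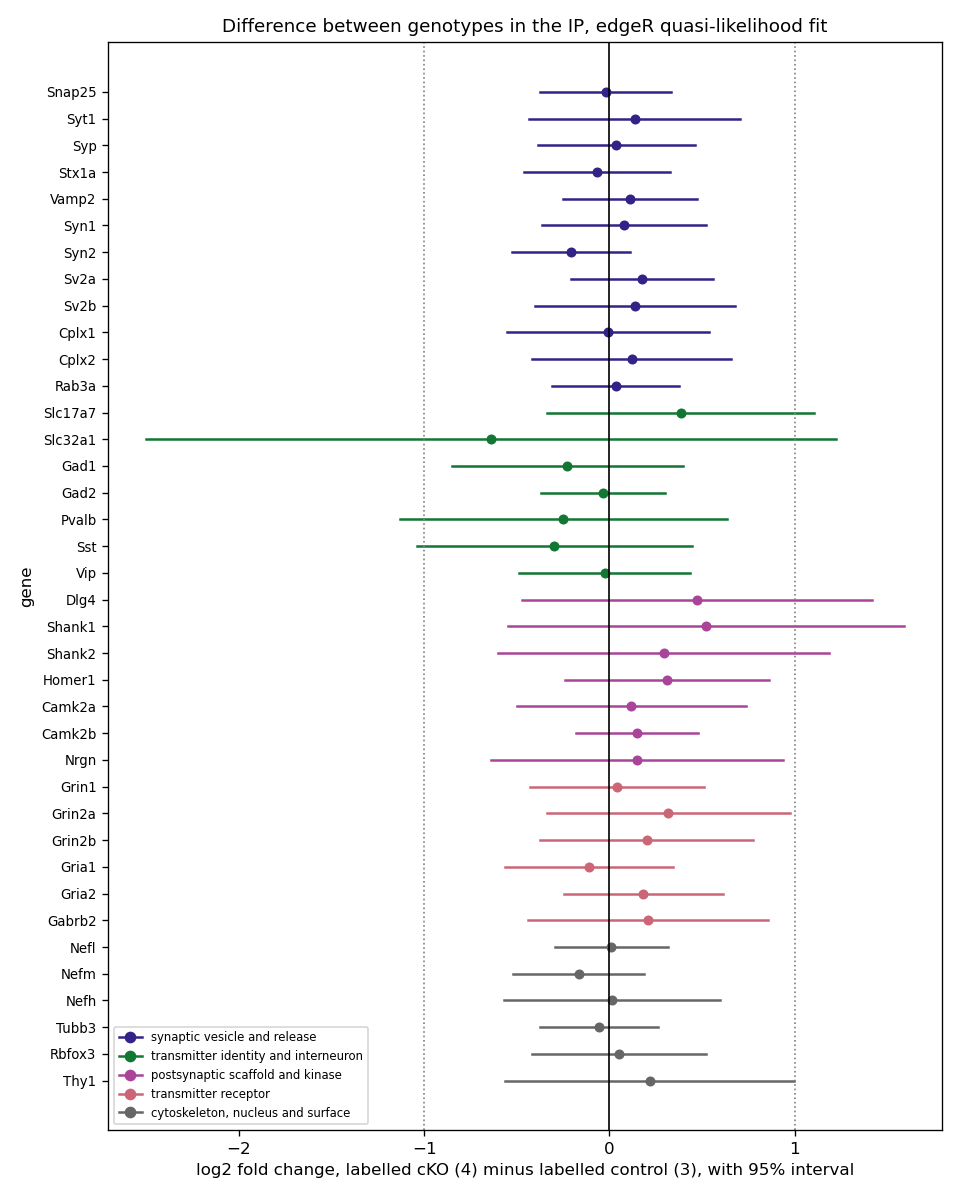
Log2 fold change of each of the 38 genes (points), libraries labelled cKO minus libraries labelled control, with its 95% interval (lines) from the edgeR quasi-likelihood fit, coloured by role. Every interval crosses 0, and the widest belongs to Slc32a1, which had 8 to 51 counts per library.

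The summed level of the 38 genes was 6279, 6332 and 7902 CPM in AstroTRAP_11, AstroTRAP_15 and AstroTRAP_19. It was 6392, 8190, 5302 and 8209 CPM in AstroTRAP_1, AstroTRAP_5, AstroTRAP_9 and AstroTRAP_17. The lowest and the highest sum both came from libraries labelled cKO, and the 3 control values lay between them. The means were 6838 ± 922 CPM (SD, n = 3) for the label control and 7023 ± 1429 CPM (SD, n = 4) for the label cKO, so the difference of 0.04 on the log2 scale was smaller than the spread within either label. As a share of the total count, the 38 genes made up between 0.534% in AstroTRAP_9 and 0.881% in AstroTRAP_17.

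Markers of other cell types moved across the same libraries. The summed level of 12 astrocyte markers ran from 32850 CPM in AstroTRAP_19 to 65330 CPM in AstroTRAP_1, and a large part of that sum was Aldoc, a glycolytic enzyme, at 15321 to 37440 CPM. Gja1, which encodes the astrocyte gap junction protein connexin 43, lay between 1042 and 1233 CPM. The neuronal sum was 12.8%, 12.4% and 24.1% of the astrocyte sum in AstroTRAP_11, AstroTRAP_15 and AstroTRAP_19. It was 9.78%, 23.6%, 12.3% and 24.4% in AstroTRAP_1, AstroTRAP_5, AstroTRAP_9 and AstroTRAP_17. AstroTRAP_19, AstroTRAP_5 and AstroTRAP_17 thus had the highest neuronal sums and the lowest astrocyte sums, and both labels were among them.

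The other cell types were present at lower sums. The 10 oligodendrocyte markers ran from 467 CPM in AstroTRAP_9 to 896 CPM in AstroTRAP_5, and all 10 had a log2 fold change below 0 (median -0.36), with 0 of 10 called. An unadjusted p under 0.05 in edgeR's quasi-likelihood test was found for 2 of the 10, Mobp and Cldn11, against 2.58% of all genes. These markers share libraries and cells, so their directions are not 10 separate observations. Of 10 microglial markers 9 were matched, and their sum ran from 59.9 CPM in AstroTRAP_9 to 123 CPM in AstroTRAP_5, with 0 of 9 called. The 8 endothelial markers summed to between 16.2 and 27.0 CPM, and Pecam1, Cdh5, Tek and Kdr were at 0 in at least 1 library. No marker of the astrocyte, oligodendrocyte or microglial lists was at 0 in any library. The neuronal, oligodendrocyte and microglial sums all had their lowest value in AstroTRAP_9, and the part of these markers in the levels of the 38 genes was not tested.

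**Figure D2:**
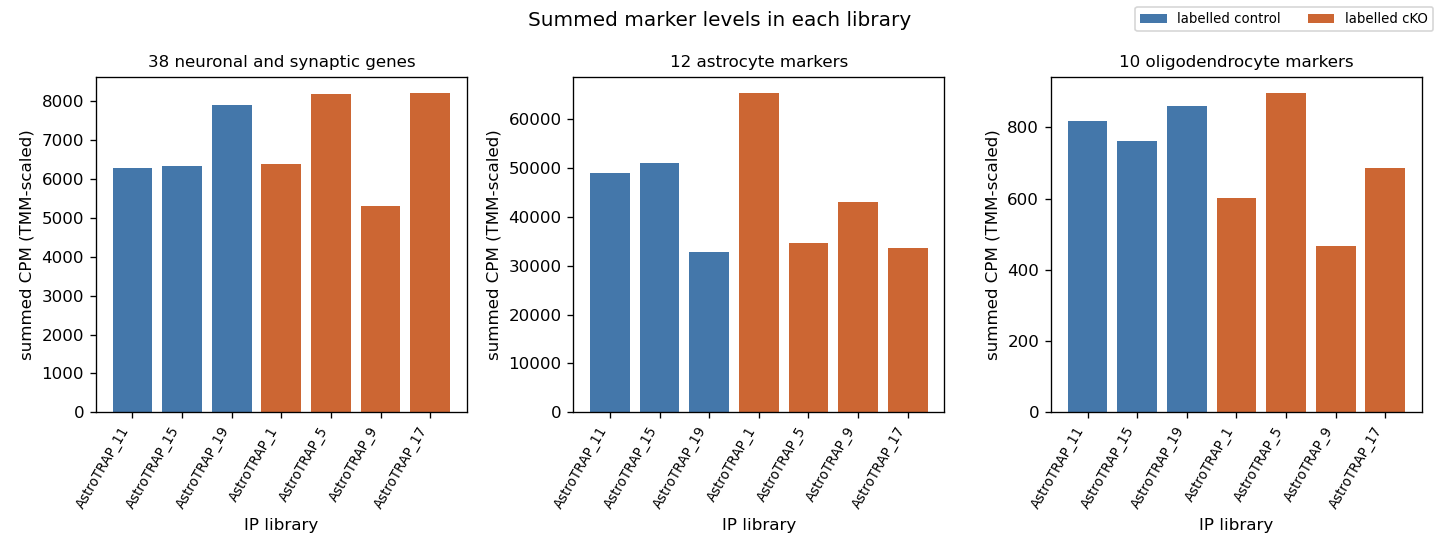
Summed CPM of the 38 neuronal and synaptic genes, 12 astrocyte markers and 10 oligodendrocyte markers (bars, each panel with its own axis from 0) in the 7 IP libraries, coloured by label. The neuronal bars run from 5302 to 8209 CPM and the astrocyte bars from 32850 to 65330 CPM.

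The order of the libraries was shared by many of the genes. AstroTRAP_9 held the lowest value of 25 of the 38 genes (65.8%), while it held the lowest value of 13.5% of all genes tested. The highest value lay in AstroTRAP_17 for 15 genes, in AstroTRAP_5 for 14 and in AstroTRAP_19 for 5. Over all genes tested these libraries held the highest value of 23.7%, 18.9% and 11.5%. The genes share their libraries, so these counts describe 7 libraries and are not separate observations.

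**Figure D3:**
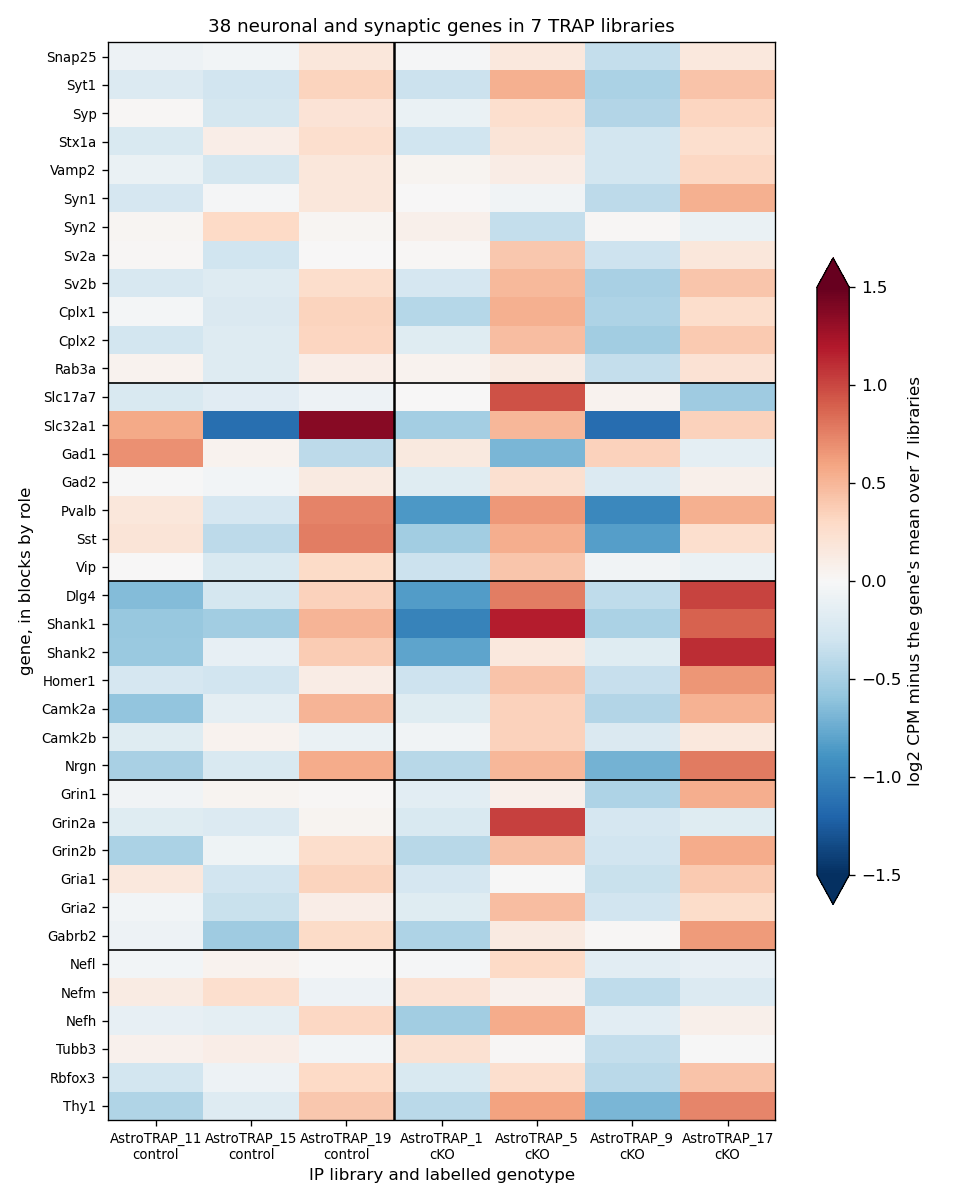
Log2 CPM of each of the 38 genes (rows, in blocks by role) minus that gene's own mean over the 7 IP libraries (columns, with their labels, colour scale in log2 units). AstroTRAP_9 is below the mean for most genes, and Gad1 and Syn2 stand out with their lowest values in AstroTRAP_5.

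Among the 12 vesicle and release genes, Snap25, Stx1a and Vamp2 encode the SNARE proteins that fuse the vesicle with the membrane, and Syt1 encodes the calcium sensor. Syp and the Sv2 genes encode vesicle membrane proteins, the synapsin genes Syn1 and Syn2 encode proteins that hold vesicles in reserve, the complexins (Cplx1, Cplx2) bind the assembled SNARE complex, and Rab3a encodes a vesicle GTPase. These 12 genes made up 63.8% to 67.2% of the summed CPM of the 38 in every library. A large part of that sum was Snap25 alone, at a mean of 2025 CPM over the 7 libraries beside a mean sum of 6940 CPM. Their median log2 fold change was 0.06, with 8 above 0 and 4 below, 0 of 12 called, and all 12 intervals within 1.

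Snap25 (chromosome 2, 136713439 to 136782428, GRCm38) had the highest mean CPM of this role in the control libraries. It stood at 1905, 1961 and 2255 CPM in AstroTRAP_11, AstroTRAP_15 and AstroTRAP_19, and at 1992, 2244, 1572 and 2246 CPM in AstroTRAP_1, AstroTRAP_5, AstroTRAP_9 and AstroTRAP_17. The ranges of the labels overlapped, with the highest value in AstroTRAP_19, labelled control, and AstroTRAP_9 alone below 1905 CPM. Its log2 fold change was -0.02 ± 0.160 (SE).

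Sv2b, a vesicle glycoprotein gene, had the lowest mean CPM of the role. It was 50.5, 52.4 and 71.9 CPM in the control libraries in the same order, and 50.3, 84.0, 42.7 and 79.4 CPM in the cKO libraries. The groups overlapped, and the log2 fold change was 0.14 ± 0.244 (SE). The spread within the label cKO, from AstroTRAP_9 to AstroTRAP_5, was wider than the difference of the means.

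Syn1 and Syn2 encode related synapsins and did not follow the same order of libraries. Syn1 ran from 95.9 CPM in AstroTRAP_9 to 181 CPM in AstroTRAP_17. Syn2 was 70.9, 85.3 and 71.0 CPM in the libraries labelled control and 73.0, 54.1, 70.5 and 64.9 CPM in those labelled cKO. Syn2 was thus lowest in AstroTRAP_5, a library in which 14 of the 38 genes were highest. Its log2 fold change was -0.21 ± 0.145 (SE), the lowest of the 12, and its adjusted p in edgeR's quasi-likelihood test was 1. Syn2 and Gad1 were singled out after their values were seen.

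The promoter windows of the genes give a further feature that the choice of genes did not use. RefSeq promoter windows on GRCm38.p6, from 250 bases before to 50 after each transcription start, were matched for 26 of the 38 genes in 38 windows. They were searched for the cyclic AMP response element TGACGTCA, a palindrome and so the same on both strands, which is the textbook binding site of the factor CREB. Of the 26 genes 2 held it, Sst and Syn1. Counted by window, 2 of the 38 windows held it, and 588 of all 32851 windows (1.79%) did. Both windows are shown because they are the matches among the 26 genes searched, with the element in capitals, read 5′ to 3′ on the gene's own strand. The genes without a matched window were not searched. The Sst window is chr16:23890795-23891094 and the Syn1 window chrX:20920869-20921168, both on the minus strand.
Sst: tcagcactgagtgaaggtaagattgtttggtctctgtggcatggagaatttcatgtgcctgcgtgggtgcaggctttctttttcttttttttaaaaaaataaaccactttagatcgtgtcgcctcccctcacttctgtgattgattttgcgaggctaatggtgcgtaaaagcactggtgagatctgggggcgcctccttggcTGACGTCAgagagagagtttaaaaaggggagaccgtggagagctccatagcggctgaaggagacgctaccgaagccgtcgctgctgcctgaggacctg
Syn1: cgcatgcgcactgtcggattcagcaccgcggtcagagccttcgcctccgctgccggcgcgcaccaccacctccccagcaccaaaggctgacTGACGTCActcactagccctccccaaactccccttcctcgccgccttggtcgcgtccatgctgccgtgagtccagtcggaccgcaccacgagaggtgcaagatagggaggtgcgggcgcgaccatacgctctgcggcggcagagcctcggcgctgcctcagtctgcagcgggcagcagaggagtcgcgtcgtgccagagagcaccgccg
The element begins at base 203 of the Sst window and at base 92 of the Syn1 window. Sst and Syn1 had their highest CPM in different libraries, Sst in AstroTRAP_19 and Syn1 in AstroTRAP_17, and both had their lowest in AstroTRAP_9. A match of letters is a description and was not tied to any measured binding.

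The 7 genes of transmitter identity and interneuron type varied more between libraries than the vesicle genes, with a median coefficient of variation of 38.6% over the 7 libraries beside 18.3%. Slc17a7 marks glutamate neurons, Gad1, Gad2 and Slc32a1 mark GABA neurons, and Pvalb, Sst and Vip mark the main interneuron classes. Their median log2 fold change was -0.23, with 1 above 0 (Slc17a7) and 6 below, and 0 of 7 called. They share libraries and in part the same neurons, so the count of directions does not represent 7 separate observations.

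Sst, which encodes the neuropeptide somatostatin, had the highest mean CPM of this role in the control libraries. It was 87.9, 58.4 and 130.3 CPM in AstroTRAP_11, AstroTRAP_15 and AstroTRAP_19, and 53.4, 111.6, 43.4 and 91.2 CPM in AstroTRAP_1, AstroTRAP_5, AstroTRAP_9 and AstroTRAP_17. High and low values occurred under both labels and the groups overlapped. The log2 fold change was -0.30 ± 0.336 (SE), and without AstroTRAP_19 it was 0.03. Pvalb, which encodes the calcium buffer parvalbumin, also had its highest value in AstroTRAP_19 and its lowest in AstroTRAP_9, at 65.3 and 20.0 CPM. Its log2 fold change was -0.25 ± 0.400 (SE).

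Slc32a1, the vesicular GABA transporter gene (chromosome 2, 158607260 to 158615747, GRCm38), had the lowest level of the role, with the largest fitted difference of the 38 genes and the widest relative spread. It was 1.30, 0.40 and 2.26 CPM in the control libraries and 0.62, 1.24, 0.40 and 1.11 CPM in the cKO libraries, in the order given above. These values rest on 8 to 51 counts per library, and the groups overlapped. Its log2 fold change of -0.64 ± 0.842 (SE) had a 95% interval from -2.50 to 1.22, so neither a large fall nor a doubling was outside what the libraries allow. Without AstroTRAP_19 the value was -0.019, and without AstroTRAP_15 it was -1.07. Its coefficient of variation was 62.9%, beside 21.2% for counting error alone.

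Gad1 and Gad2 encode the enzymes that make GABA from glutamate, and they differed in their order across libraries. Gad1 was 61.4, 39.6 and 29.0 CPM in AstroTRAP_11, AstroTRAP_15 and AstroTRAP_19, and 42.1, 23.7, 48.3 and 34.3 CPM in AstroTRAP_1, AstroTRAP_5, AstroTRAP_9 and AstroTRAP_17. Gad2 was 49.0, 48.0 and 54.1 CPM in the control libraries and 43.4, 58.3, 42.8 and 51.9 CPM in the cKO libraries. Gad1 was therefore lowest in AstroTRAP_5, where Gad2 was highest, and second highest in AstroTRAP_9, where Gad2 was lowest. Gad2 had one of the smallest coefficients of variation, 11.3%, and Gad1 one of 31.6%. The log2 fold changes were -0.23 ± 0.281 (SE) for Gad1 and -0.04 ± 0.151 (SE) for Gad2, and neither gene was called.

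**Figure D4:**
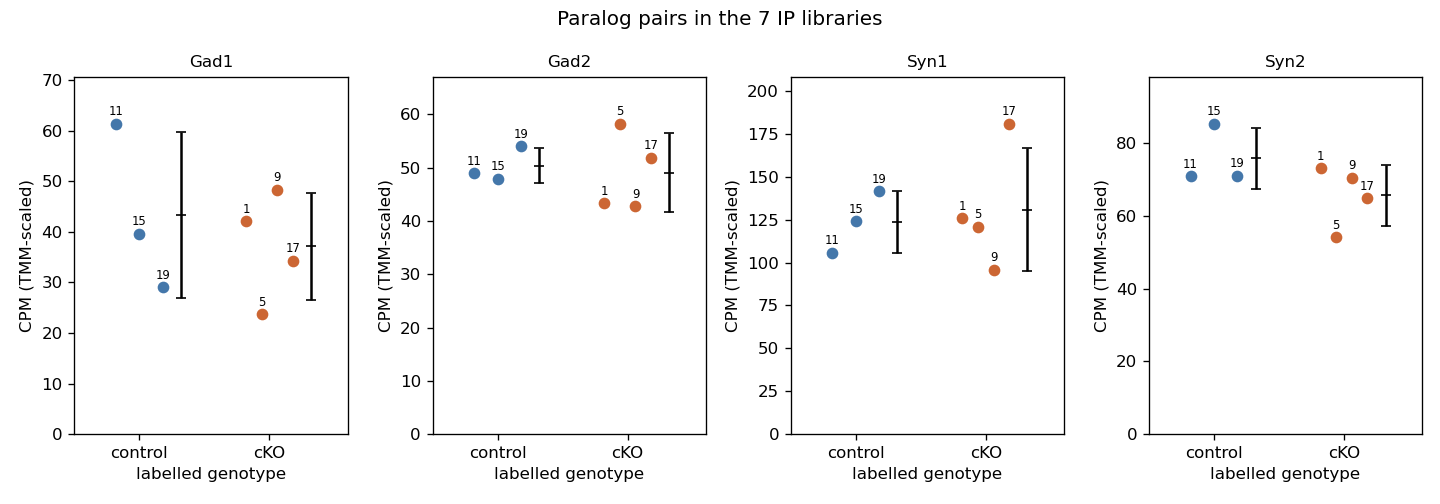
CPM of Gad1, Gad2, Syn1 and Syn2 in each IP library (points, numbered by library) by label, with the mean and SD beside them. Gad1 and Syn2 have their lowest points in library 5, whereas Gad2 has its highest there.

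Slc17a7, the glutamate transporter of cortical excitatory vesicles, was 10.4, 10.8 and 11.5 CPM in the control libraries and 12.2, 23.4, 12.6 and 8.37 CPM in the cKO libraries. AstroTRAP_5 was above every other library, the rest of which lay between 8.37 and 12.6 CPM, and AstroTRAP_17 was the lowest although it held the highest value of 15 other genes. The log2 fold change was 0.38 ± 0.326 (SE), and 0.02 without AstroTRAP_5.

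The 7 genes of the postsynaptic scaffold and its kinases were the only role in which every fitted log2 fold change was above 0, with a median of 0.29 and a range from 0.12 for Camk2a to 0.52 for Shank1. None of the 7 was called, and without AstroTRAP_17 the values of Camk2a and Shank2 were below 0, at -0.05 and -0.16. Without AstroTRAP_11, a control library, Camk2a was at -0.11. For Homer1, Camk2b and Nrgn, values with a library left out were not taken, so the stability of their sign is not known. Nrgn too was highest in AstroTRAP_17, at 147.0 CPM beside 52.5 to 120.8 CPM in the other cKO libraries. Over all genes tested 52.3% were above 0, and the 7 genes share their libraries, so their directions are not separate observations. Each of the intervals included 0, and for 4 of the 7 the interval lay within 1. Dlg4 encodes the scaffold PSD-95, Shank1 and Shank2 encode scaffolds that sit beneath it, Homer1 links Shank proteins to metabotropic receptors, Camk2a and Camk2b encode subunits of the calcium and calmodulin dependent kinase, and Nrgn encodes the calmodulin-binding protein neurogranin. Their share of the summed CPM of the 38 genes ran from 11.2% in AstroTRAP_11 to 17.1% in AstroTRAP_17.

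Shank1 (chromosome 7, 44308916 to 44360094, GRCm38) was 18.8, 19.5 and 39.5 CPM in AstroTRAP_11, AstroTRAP_15 and AstroTRAP_19. It was 13.9, 63.0, 20.0 and 51.4 CPM in AstroTRAP_1, AstroTRAP_5, AstroTRAP_9 and AstroTRAP_17. The cKO libraries held both the lowest value and the highest values, and the control values lay between. The highest was 4.52 times the lowest, and the log2 fold change was 0.52 ± 0.483 (SE). It was 0.13 without AstroTRAP_5 and 0.96 without AstroTRAP_19. Dlg4, which was also lowest in AstroTRAP_1, was 9.91, 12.9 and 19.7 CPM in the control libraries and 8.70, 26.4, 11.9 and 31.4 CPM in the cKO libraries, in the same order. The highest value was in AstroTRAP_17 and the labels overlapped. Its log2 fold change was 0.47 ± 0.428 (SE), 0.16 without AstroTRAP_17 and 0.78 without AstroTRAP_19.

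Camk2a had the highest mean CPM of the role. It was 388.3, 527.9 and 830.5 CPM in the control libraries, and 515.2, 742.0, 432.3 and 838.5 CPM in the cKO libraries. The lowest value was in AstroTRAP_11, a control library, and the highest values under the labels control and cKO were close to each other. The log2 fold change was 0.12 ± 0.280 (SE). Shank2, with the lowest mean CPM, was 9.88, 13.5 and 18.9 CPM in the control libraries and 8.45, 16.3, 12.9 and 31.5 CPM in the cKO libraries. It was lowest in AstroTRAP_1 and highest in AstroTRAP_17, and its log2 fold change was 0.29 ± 0.404 (SE). In both genes the libraries of the labels overlapped.

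The 6 receptor genes were Grin1, Grin2a and Grin2b, subunits of the NMDA receptor, Gria1 and Gria2, subunits of the AMPA receptor, and Gabrb2, a subunit of the GABA-A receptor. Their median log2 fold change was 0.19, with 5 above 0 and 1 below (Gria1), 0 of 6 called and all 6 intervals within 1. The 6 genes share their libraries, so their directions are not separate observations. Grin2a, the highest at 0.32, was 119.2 CPM in AstroTRAP_5 and 49.2 to 51.7 CPM in the other cKO libraries. Without AstroTRAP_17 the value of Gabrb2 was -0.0032. Gria2, which makes AMPA receptors impermeable to calcium when edited, was 81.6, 67.0 and 90.4 CPM in the control libraries and 74.4, 116.0, 69.3 and 102.0 CPM in the cKO libraries. Gabrb2 was 13.3, 9.74 and 17.2 CPM in the control libraries and 10.2, 15.5, 14.3 and 21.9 CPM in the cKO libraries. The ranges of the labels overlapped in both genes, and the log2 fold changes were 0.18 ± 0.195 (SE) for Gria2 and 0.21 ± 0.293 (SE) for Gabrb2.

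The last 6 genes were the neurofilament genes Nefl, Nefm and Nefh, the neuronal tubulin gene Tubb3, Rbfox3, which encodes the nuclear protein NeuN, and the surface protein gene Thy1. Their median log2 fold change was 0.01, with 4 above 0 and 2 below, 0 of 6 called and all 6 intervals within 1. Nefl had the lowest coefficient of variation of the 38 genes, 11.1%. It was 261.4, 278.6 and 269.6 CPM in the control libraries, and 265.5, 332.7, 241.1 and 248.0 CPM in the cKO libraries, with a log2 fold change of 0.01 ± 0.137 (SE). Nefh was 16.1, 15.8 and 21.8 CPM in the control libraries and 12.2, 25.7, 15.7 and 18.5 CPM in the cKO libraries, with a log2 fold change of 0.02 ± 0.263 (SE). For both genes the control values lay inside the range of the cKO values.

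The spread between libraries exceeded counting error in every one of the 38 genes. The coefficient of variation had a median of 25.8% over the 38 genes, beside 22.5% over all genes tested, and counting alone would give between 0.488% for Snap25 and 21.2% for Slc32a1. The highest value of a gene was between 1.36 times its lowest, for Gad2, and 5.69 times, for Slc32a1.

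A wider list of 81 neuronal genes, none of them among the 38, gave a like picture. It held other genes of transmitter release, ion channels, receptors and neuronal transcription factors. Of the 81, 80 were matched and tested, and 0 were called with edgeR's quasi-likelihood test, its exact test or DESeq2, beside 0.0451% of all genes in the first of these. Their median log2 fold change was 0.04, with 50 above 0 and 30 below. That direction rested on single libraries. The median was -0.06 without AstroTRAP_5, -0.05 without AstroTRAP_17 and -0.03 without AstroTRAP_11, and 0.20 without AstroTRAP_19. Of the 80 genes, 29 were above 0 without AstroTRAP_5 and 69 without AstroTRAP_19. Unadjusted p-values were under 0.05 for 3 of 80, or 3.75%, against 2.58% of all genes. AstroTRAP_9 held the lowest value of 39 of the 80 genes (48.8%) and AstroTRAP_17 the highest of 35 (43.8%).

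The 3 genes were Gabra2, Gabra5 and Cnr1. Gabra2, a subunit gene of the GABA-A receptor, was 6.89, 6.18 and 7.98 CPM in the control libraries and 9.63, 19.6, 8.35 and 12.2 CPM in the cKO libraries, so the labels did not overlap. Gabra5, another subunit gene, was 10.5, 11.9 and 24.1 CPM in the control libraries and 10.1, 10.3, 6.81 and 5.41 CPM in the cKO libraries, again without overlap and in the opposite direction. Cnr1 encodes a cannabinoid receptor, and its libraries overlapped. In edgeR's quasi-likelihood test all 3 had an adjusted p of 1. Genes without overlap numbered 2 of 80, beside 5.11% of all genes.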

How the data were processed

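RNA was measured in cortical TRAP IP, in 7 libraries, and no input library was used. The authors trimmed reads with cutadapt 1.15, assigned them to GENCODE transcripts of GRCm38 with kallisto 0.44.0 and deposited estimated counts per gene, neither normalized for depth nor for length. Levels of different genes are therefore not compared per length. The table held 18 columns, of which 11 could not be tied to a labelled sample and were not used. The 7 used columns name a genotype in the study's source data but no replicate, so each was counted as 1 sample and p-values measure the spread between these samples. No pair of libraries of the same label agreed within counting noise (lowest chi-square per degree of freedom 31.1), and pairs across labels were not examined.

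The estimated counts were rounded, filterByExpr kept 13296 of 21923 genes, and TMM factors scaled the libraries. The labels were compared in R 4.3.3 by a quasi-likelihood test (edgeR 4.0.16), in a model that held genotype alone. Standard errors and 95% intervals were taken from its F statistic. The test was first run on simulated data. Alternatives were the exact test that the study used, DESeq2 1.42.0, RLE, library-size and astrocyte-gene scaling, no filter on low counts, a minimum of 1 CPM in 3 libraries, and leaving out each library in turn.

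The 38 genes and all lists were chosen with earlier results of these data known. Values per library are given for the genes with the highest and lowest mean CPM of each role in the control libraries, the 3 largest changes, and the 2 highest and 2 lowest coefficients of variation. Syn1, Syn2, Gad1, Slc17a7 and Pvalb, and the 3 genes of the wider list, were added after their values were seen. Counting error is the Poisson spread of the counts, which leaves out other technical error. Gene positions and promoter windows are those of RefSeq for GRCm38.p6.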

Additional observations from a re-analysis of the deposited data

Results flagged for a closer look

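Of 49 sets of 4 cKO values examined, 38 genes and 11 sums, 1 had a sample far from the others by Dixon's ratio, and chance flags about 1 in 20. All sets come from the same 4 libraries and some sums hold the same genes, so the sets are not separate observations. The value was Grin2a at 119.2 CPM in AstroTRAP_5, beside 50.2, 49.2 and 51.7 CPM in the other libraries labelled cKO, with a ratio of 0.964. Grin2a encodes a subunit of the NMDA receptor. The control libraries, 3 in number, were not examined in this way.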

How the results depend on the processing

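The count of 0 called among the 38 genes and among the 80 genes of the wider list was the same under every alternative run. Over all genes, 6 were called in the main test, 21 with DESeq2 and 18 with the exact test, 6 or 7 under the other scalings and filters, and 4 to 6 when 1 library was left out. The log2 ratio of the summed CPM was 0.04 in the main setting, 0.17 with astrocyte-gene scaling, and between -0.04 and 0.16 when 1 library was left out. The median log2 fold change of the 38 genes was -0.04 without AstroTRAP_17 and -0.03 without AstroTRAP_5, so its sign rested on these libraries. With astrocyte-gene scaling Snap25 moved to 0.11 and Gad2 to 0.10. When 1 library was left out, the log2 fold change ran from -0.076 to 0.076 for Snap25, -0.021 to 0.31 for Sv2b, -0.56 to 0.032 for Sst, -0.11 to 0.46 for Camk2a, -0.16 to 0.56 for Shank2, -0.0032 to 0.42 for Gabrb2, -0.10 to 0.058 for Nefl, -0.21 to 0.18 for Nefh, -0.13 to 0.019 for Gad2, -0.45 to 0.11 for Gad1 and -0.54 to 0.050 for Pvalb. Without a change of sign it ran from -1.07 to -0.019 for Slc32a1, 0.13 to 0.96 for Shank1, 0.16 to 0.78 for Dlg4, 0.023 to 0.57 for Slc17a7, 0.039 to 0.29 for Gria2 and -0.26 to -0.11 for Syn2. None of these genes was called under any setting, and the cause of the shifts was not tested. No paired analysis was possible because the columns carry no replicate number. The planned comparison of IP with input was not run because the input columns could not be tied to labelled samples. At these depths Slc32a1, with 8 counts in its lowest library, was the least precise of the 38 genes.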
